A study of Mus musculus with 1600 samples.

Results

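Mouse limb bud cells of embryonic day E10.5 that expressed Scx were compared with cells of the same stage that had little or no Scx. Scx-expressing cells were those with at least 50 CPM of Scx (counts per 1e6 counts of the cell), and Scx-low cells those with under 5 CPM. Of 120 cells labelled E10.5, 119 had at least 1000 detected genes. Scx-expressing cells numbered 23, Scx-low cells 88, and the 8 cells between these limits entered neither group. The members were chosen by their Scx values, so Scx itself is no result. The 111 compared cells came from a table of 480 single cells that spans this stage, E12.5 and E15.5. All cells, in both groups, were labelled as hind limb of SCX-GFP transgenic mouse embryos on the C57BL/6 background, and no treatment is named. Sibling limbs of a litter were pooled, dissociated with collagenase and trypsin and loaded on a Fluidigm C1, an instrument that isolates single cells in a microfluidic chip, and Nextera XT libraries were made from the cDNA, per the labels' protocols. No sort for GFP is described there. Cells of such a pool are not replicates of a condition, so E10.5 was 1 sample, no test was possible and no p-value is given. Sums of counts are given with exact Poisson 95% intervals, which cover counting error only. Shares of cells are given with exact Clopper-Pearson 95% intervals, which cover only the drawing of that number of cells from 1 sample. Neither covers a spread between samples, and neither serves as a test.

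Scleraxis, the product of Scx, is a basic helix-loop-helix (bHLH) transcription factor that pairs with E proteins and binds the E-box. It marks tendon and ligament progenitors from early limb bud stages on, and mature tendon genes such as Tnmd come on later under its control. The early limb bud is mesenchyme under a cap of ectoderm. FGF from the distal ridge, hedgehog from the posterior margin, retinoic acid from the trunk, and WNT and BMP signals pattern it before muscle progenitors, tendon and cartilage can be told apart by shape.

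Because scleraxis binds E-boxes (CANNTG, which reads the same on both strands), promoter windows of 250 bases before to 50 after the RefSeq gene start (build GRCm38.p6) were searched for that motif. The windows of a chemokine gene that was higher and of a guidance receptor gene that was lower in Scx-expressing cells are shown, 5′ to 3′ on the gene's strand, with any E-box in capitals. Cxcl12 has its window at chr6:117168285-117168584 on the plus strand, and Nrp2 at chr1:62703067-62703366 on the plus strand.
Cxcl12: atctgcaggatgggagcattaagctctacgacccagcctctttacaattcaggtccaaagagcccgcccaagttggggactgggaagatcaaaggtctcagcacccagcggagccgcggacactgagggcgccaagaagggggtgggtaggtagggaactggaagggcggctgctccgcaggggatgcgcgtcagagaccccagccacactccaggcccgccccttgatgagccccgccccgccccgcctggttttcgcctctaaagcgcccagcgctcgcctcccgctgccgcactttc
Nrp2: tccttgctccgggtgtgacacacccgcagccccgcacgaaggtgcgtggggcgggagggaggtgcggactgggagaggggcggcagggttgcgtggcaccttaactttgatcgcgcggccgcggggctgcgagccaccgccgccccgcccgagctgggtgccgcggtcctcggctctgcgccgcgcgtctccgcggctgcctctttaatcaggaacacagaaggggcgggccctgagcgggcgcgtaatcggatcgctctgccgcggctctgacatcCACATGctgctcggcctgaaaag
The Cxcl12 window held 0 such motifs, and the Nrp2 window held 1. Of all 32851 windows 72.3% held the motif. For the shares by gene, 1 window was taken per gene, the first by position where a gene had several. The motif was found in 65.6% of 186 genes higher in Scx-expressing cells, 61.7% of 650 lower genes and 61.0% of all 6933 tested genes with a window. These shares lie within a few points of each other, and a match describes letters in a window, not binding.

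Scx chose the groups, so its values are a description. In the 23 Scx-expressing cells Scx was between 65.9 and 1460 CPM with a median of 178 CPM, and in the 88 Scx-low cells it was at most 4.60 CPM, with 0 counts in 71 of them. Scx-expressing cells were in all 3 library pools (7, 7 and 9 cells), with median Scx of 191, 152 and 178 CPM by pool. They made up 19.3% of the stage's cells and held 97.1% of its Scx counts. The lowest cells inside the upper limit had 65.9, 76.6, 77.5 and 78.0 CPM, and the highest cells under it had 42.9, 32.1, 21.7 and 12.6 CPM. The lowest cells above the lower limit had 6.96, 8.49, 9.41 and 9.77 CPM, and the highest under it 4.60, 3.97, 3.90 and 3.61 CPM. Few cells were thus near the upper limit. The cells listed on either side of the lower limit had only 1 or 2 Scx counts each. At these depths 1 Scx count is close to the lower limit, so a cell with Scx in it can fall in the Scx-low group. Scx lies at chr15:76457452-76459458 on the plus strand (mm10, GENCODE annotation), within Bop1, a ribosome biogenesis gene on the minus strand, but no annotated exons of these genes overlap. Bop1 had 89.7 CPM summed over Scx-expressing cells and 126 CPM summed over Scx-low cells. Whether transcripts of the transgene were counted as Scx was not tested.

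**Figure D1:**
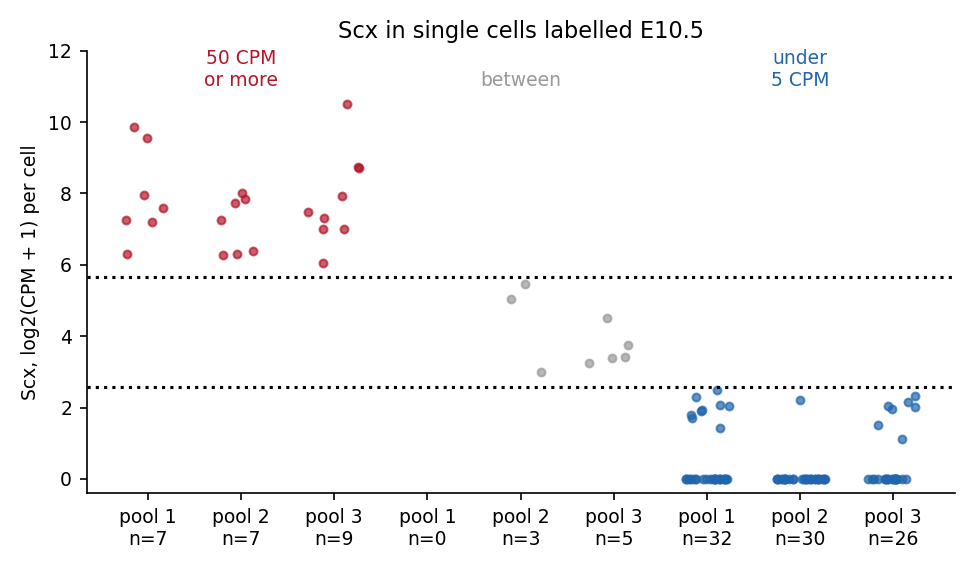
Scx in each cell labelled E10.5, as log2(CPM + 1), by library pool (1 to 3) and by group, with dotted lines at the limits of 50 and 5 CPM. Each point is a cell. The Scx-expressing cells are spread over all 3 pools, and most Scx-low cells are at 0.

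Median depth was alike in the groups as a whole, but not within pools. Scx-expressing cells had 156725 to 484516 counts each with a median of 276778, and Scx-low cells 10707 to 844596 with a median of 278374. They had a median of 4913 and 4858.5 detected genes per cell. In pools 1, 2 and 3 the median counts were 376783, 354518 and 229909 in Scx-expressing cells. In Scx-low cells they were 317395, 301132 and 197084, lower in each pool. To compare shares of cells with a count, each cell was thinned to 50000 counts, which left out 0 Scx-expressing and 4 Scx-low cells. The labels name the hind limb and no cell type. Most cells of both groups carried counts of 2 limb mesenchyme markers. Prrx1, a homeobox factor of limb mesenchyme, had a count in 23 of 23 Scx-expressing and 86 of 88 Scx-low cells, and Twist1, a mesenchymal bHLH factor, in 21 and 71 cells. No more than 1000 CPM of the ectoderm, endothelium, red cell, immune, neural crest and muscle progenitor marker lists was found in 21 of 23 Scx-expressing and 75 of 88 Scx-low cells. Limb identity genes went against the hind limb label. Tbx5, the T-box factor that marks forelimb, had a count in 18 of 23 Scx-expressing and 63 of 88 Scx-low cells. Pitx1, the hindlimb factor, had 0 counts in both groups, which allows shares of cells with a count of up to 14.8% of Scx-expressing and 4.11% of Scx-low cells.

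For each gene the CPM of the counts summed over a group was used, and the ratio is the log2 of Scx-expressing over Scx-low with 5 CPM added to each. A gene is called higher or lower here when this ratio was at least 1 in size and had the same sign within each of the 3 pools. Among 9718 genes with a count in at least 10 cells, 261 were called higher (2.69%) and 941 lower (9.68%) in Scx-expressing cells. The filter counted cells of both groups together. The 88 Scx-low cells could thus pass a gene alone more easily than the 23 Scx-expressing cells. Of the tested genes 56 had 0 counts in Scx-expressing cells, 44 of them called lower, and 0 had 0 counts in Scx-low cells. These 56 passed the filter through Scx-low cells alone, so they could only be lower or not called. The median log2 ratio was -0.06, with 4510 genes above 0 and 5208 below. Sums over the smaller group rested more on single cells. The cell with the most counts of a gene held a median of 36.4% of the gene's counts in Scx-expressing cells and 16.0% in Scx-low cells. By size alone, with no regard to the pools, 707 genes (7.28%) would be higher and 1190 (12.2%) lower. Leaving out pool 1, 2 or 3 called 6.64%, 6.09% and 5.92% of the same 9718 genes higher and 15.8%, 16.7% and 15.9% lower. The sign was then asked of 2 pools, and only 14 to 16 Scx-expressing and 56 to 62 Scx-low cells were left, so both changed at once. When the highest cell of each gene was left out of both groups, 151 genes were called higher and 1107 lower, and the median ratio moved to -0.31. Calls are therefore a description of these cells, and the shares 2.69% and 9.68% are what any gene list is read against below.

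Among transcription factors, Nr2f1 (COUP-TFI, an orphan nuclear receptor) and Tcf7l2 (a WNT effector that also marks muscle connective tissue fibroblasts in the limb) were higher in Scx-expressing cells. The genes lie at chr13:78188973-78199757 on the minus strand and chr19:55741820-55933654 on the plus strand (mm10). Nr2f1 reached 1600 CPM with a median of 365 CPM over the 23 Scx-expressing cells, and 3041 CPM with a median of 14.6 CPM over the 88 Scx-low cells, and the lowest cell of either group was at 0. Cells of both groups overlapped over the whole range, but the middle of the Scx-expressing cells was far above that of the Scx-low cells. Summed Nr2f1 was 500.3 CPM (484 to 517) in Scx-expressing and 185 CPM (179 to 190) in Scx-low cells, a log2 ratio of 1.41, with 2.17, 0.64 and 1.23 in pools 1 to 3. It was no longer called without pool 1 (0.99), with every cell thinned to 50000 counts (0.82) or as the mean of single-cell CPM (0.82). After thinning, 78.3% of Scx-expressing and 51.2% of Scx-low cells had a Nr2f1 count. Nr2f1 was not on any list and was named after its values were seen.

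Tcf7l2 had a median of 249 CPM and a highest value of 868 CPM in Scx-expressing cells, and a median of 33.3 CPM and a highest value of 773 CPM in Scx-low cells, with 0 as the lowest in both. Its sums were 304 CPM (291 to 317) in Scx-expressing and 114 CPM (110.0 to 118) in Scx-low cells. The log2 ratio was 1.37 overall and 1.51, 1.79 and 0.57 in the 3 pools. The call held in all 21 alternative settings, 1.15 to 1.64 with a pool left out. Some of these settings only loosen the rule, so they cannot lose a call: a pseudocount of 1 CPM, no filter on cells, and size alone. The alternative scalings of the counts raised the ratios here, so they could not lose a higher call either. Leaving out a pool also asks the sign of fewer pools. It was the only higher member among 10 tested genes of the connective tissue list, whose median ratio was 0.15. Col1a2, a chain of type I collagen, had a summed 210.2 CPM in Scx-expressing and 114 CPM in Scx-low cells, a ratio of 0.85 that came from pool 2 (2.10) and was near 0 in pools 1 (0.03) and 3 (-0.05).

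The chemokine Cxcl12 attracts Cxcr4-bearing cells, muscle progenitors among them. Its counts were in 10 of 23 Scx-expressing and 19 of 88 Scx-low cells, so the median cell of either group was at 0, and the highest cells had 896 CPM in the Scx-expressing and 343 CPM in the Scx-low group. Summed Cxcl12 was 86.0 CPM (79.3 to 93.2) in Scx-expressing and 12.1 CPM (10.8 to 13.6) in Scx-low cells, a 7.09-fold ratio and a log2 ratio of 2.41. It was higher in each pool (1.28, 3.41 and 3.60), and without pool 1 it was 3.55. At least 50 CPM of Cxcl12 was seen in 30.4% of Scx-expressing cells (13.2 to 52.9) and 5.68% of Scx-low cells (1.87 to 12.8). The expression was thus in a minority of the Scx-expressing cells. Cxcr4 itself had 0 counts in both groups.

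The guidance molecules went both ways. Efna5, a membrane-anchored ephrin ligand, had a median of 152 CPM and a highest value of 1499 CPM in Scx-expressing cells, and a median of 16.7 CPM and a highest value of 1754 CPM in Scx-low cells. Its sums were 237 CPM (226 to 249) in Scx-expressing and 102 CPM (98.3 to 106) in Scx-low cells, a log2 ratio of 1.17 with 0.99, 0.95 and 1.29 by pool. It was just under 1, and no longer called, without pool 3 (0.97) or without its highest cells. Nrp2, a neuropilin co-receptor for class 3 semaphorins and VEGF, was lower. It reached 205 CPM in Scx-expressing and 4623 CPM in Scx-low cells, with medians of 3.61 and 6.53 CPM and the lowest cells at 0. The difference lay in the cells with high Nrp2: 3 of 23 Scx-expressing and 28 of 88 Scx-low cells had at least 50 CPM, while the share with any count at equal depth was 34.8% and 35.7%. Summed Nrp2 was 13.9 CPM (11.2 to 16.9) in Scx-expressing and 126 CPM (122 to 131) in Scx-low cells, 9.11-fold lower, with log2 ratios of -3.54, -3.24 and -1.77 by pool. It was -2.11 without pool 1 and -3.48 without pool 3. Efna5 and Nrp2 were the only calls among 23 tested ephrin, semaphorin and other guidance genes, whose median was 0.16. Sema3c, a ligand of neuropilins, had a large ratio of 2.19 but no call, since it was 3.27, 0.23 and -2.09 by pool and 72.5% of its counts in Scx-expressing cells were in 1 cell.

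**Figure D2:**
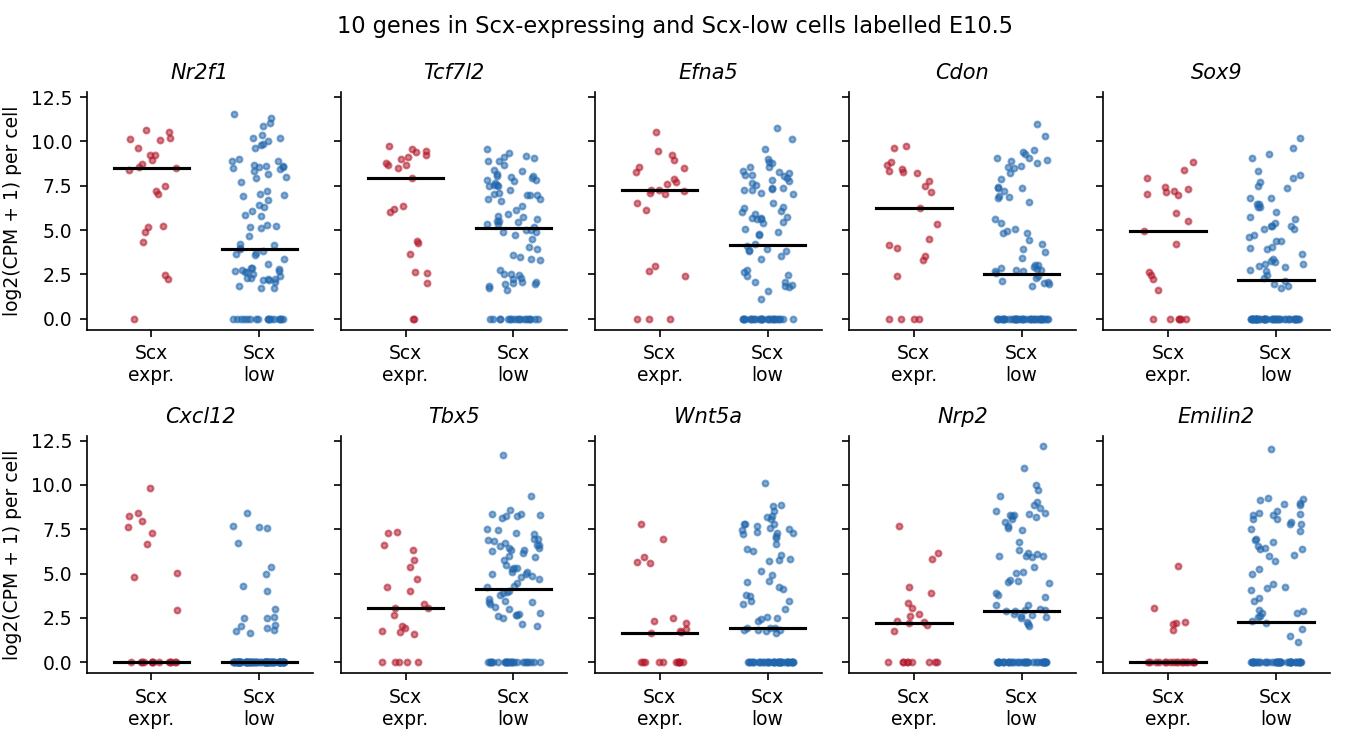
Values of 10 genes in single cells labelled E10.5, as log2(CPM + 1), in Scx-expressing (left, red, 23 cells) and Scx-low cells (right, blue, 88 cells), with bars at the medians. Nr2f1, Tcf7l2, Efna5 and Cdon have higher medians in Scx-expressing cells, Cxcl12 is at 0 in most cells, and Nrp2 and Emilin2 lack the high cells that the Scx-low group has.

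The hedgehog pathway had no call among 9 tested members, with 7 of 9 above 0 and a median of 0.32. Cdon, a co-receptor for hedgehog ligands, had the largest positive ratio of the list. Its median cell had 74.2 CPM in the Scx-expressing group and 4.71 CPM in the Scx-low group, and its highest cells 868 and 2057 CPM. Summed Cdon was 207 CPM (196 to 218) in Scx-expressing and 114 CPM (110.0 to 118) in Scx-low cells, a log2 ratio of 0.83 with 0.67, 0.85 and 0.99 by pool, under the size of 1 in every pool but on the same side in each. At equal depth 69.6% of Scx-expressing and 35.7% of Scx-low cells had a Cdon count. Smo, the signal transducer, was at 0.72, and Gli3, the pathway's main repressor in the limb, at 0.51, both also positive in each pool. Gas1, another co-receptor, was at 0.20. Ptch1, a receptor gene that hedgehog signalling induces, had 12 counts in all Scx-expressing cells and 24 in all Scx-low cells, too few to be tested. Shh had 0 counts in Scx-expressing cells and was found in 3 Scx-low cells.

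Sox9 and Scx mark progenitors that in the mouse contribute to the junction of tendon and cartilage. At least 50 CPM of Sox9, the chondrogenic SRY-box factor, was seen in 43.5% of Scx-expressing cells (23.2 to 65.5) and 20.5% of Scx-low cells (12.6 to 30.4). These intervals overlap, but they take cells as draws from 1 sample and are no test. Sox9 reached 453 CPM with a median of 29.9 CPM in Scx-expressing cells and 1188 CPM with a median of 3.60 CPM in Scx-low cells. Summed Sox9 was 91.9 CPM (84.9 to 99.3) in Scx-expressing and 52.5 CPM (49.7 to 55.5) in Scx-low cells, a log2 ratio of 0.75 with 1.16, 0.37 and 0.63 by pool, and it was not called. At equal depth the share of cells with any Sox9 count differed little, 47.8% of Scx-expressing and 42.9% of Scx-low cells. Of the 14 tested genes of the cartilage condensation list 0 were higher and 3 lower, with a median of 0.01. The lower ones were Sox6, a partner of Sox9, Hapln1, a link protein of hyaluronan matrix, and Col11a1, a fibrillar collagen chain. Summed Sox6 was 0.286 CPM in Scx-expressing and 17.7 CPM in Scx-low cells, and its counts lay in 2 and 11 cells. Hapln1 was at 0.571 CPM in Scx-expressing and 21.4 CPM in Scx-low cells, with 67.9% of the counts of Scx-low cells in 1 cell. Its ratio of -2.24 was -1.10 without pool 3, and after thinning, or without cells that carried over 1000 CPM of markers of another cell type, too few cells had a count for it to be tested. Col2a1, the main cartilage collagen, had ratios of -2.42, -1.78 and 2.41 by pool.

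Genes of differentiated tendon were scarcely detected. Of 19 list members found besides Scx, 9 had 0 counts in Scx-expressing cells, among them Mkx, a tendon homeobox factor, and Tnmd, the tendon membrane protein tenomodulin, and 5 had 0 counts in Scx-low cells, Tnmd again among them. Only 4 were tested, 0 were higher and 2 lower (Col11a1 at -1.25 and the proteoglycan gene Bgn at -1.15), and the median was -0.36. Bgn had only 3 counts in Scx-expressing cells, against 174 in Scx-low cells, and its call was lost as the mean of single-cell CPM (-0.81) or without its highest cells (-0.82). Egr1, a zinc finger factor that takes part in tendon gene expression, had a median of 185 CPM in Scx-expressing and 6.41 CPM in Scx-low cells. Its highest cells had 648 and 1731 CPM, its sums were 179 CPM (169 to 189) and 118 CPM (114 to 123), and its log2 ratio of 0.58 was no call. Among the 13 tested immediate-early genes, Myc was called higher and Atf3 lower, with a list median of 0.19. Myc was at 9.14 CPM in Scx-expressing and 2.02 CPM in Scx-low cells, and Atf3 at 0.143 and 12.3 CPM. Myc, at 1.01, kept its call in 13 of 19 alternative settings. It was 0.67 without pool 2, just under 1 without pool 3, 0.71 without its highest cells and 0.88 as the mean of single-cell CPM, and was called in none of these. After thinning too few cells had a Myc count for it to be tested. Atf3, at -1.75, was -0.94 without pool 3.

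The bHLH partners and antagonists of scleraxis had no call among 12 tested genes, with a median of 0.29. The E protein genes Tcf3, Tcf4 and Tcf12 had ratios of -0.43, 0.38 and 0.19. Tcf4 was detected in all 23 Scx-expressing and all 88 Scx-low cells, with 832 CPM in Scx-expressing and 637.1 CPM in Scx-low cells when summed. The Id genes encode inhibitors that bind E proteins. Id1 was at 0.06, Id2 at 0.55 and Id3 at 0.53. Id2 and Id3 were positive in each pool, and Id3 had medians of 290 CPM in Scx-expressing and 200 CPM in Scx-low cells. Tcf15 (paraxis), a bHLH factor close to scleraxis, was at 0.17, with 1 cell holding 56.4% of its counts in the Scx-expressing group.

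The signalling lists held few calls. TGF-beta signals maintain tendon progenitors in the mouse limb. Of 16 tested genes of that pathway 0 were higher and 1 lower, with a median of 0.01. Ltbp1, a latent TGF-beta binding protein, was the lower one, with 1 count in Scx-expressing and 289 in Scx-low cells. The ligand gene Tgfb2 was at 0.48 with ratios of 1.40, 0.67 and -3.52 by pool, and the receptor gene Tgfbr1 was at 0.54 with -0.57, 0.82 and 1.04. Tgfbr2 had 0 counts in Scx-expressing cells. Smad3, a signal transducer, was at 1.20 and not called, since pool 3 was at -0.43. Of the 16 FGF and ERK genes 0 were called in either direction and the median was 0.00. Etv4 and Etv5, ETS factors induced by FGF, were at -0.62 and -0.02, the feedback inhibitor Spry1 at 0.30, and the ligand gene Fgf10 at -0.42. Of the 16 BMP genes 0 were higher and 2 lower, the receptor gene Bmpr2 and the antagonist gene Nbl1, with 3 and 5 counts in Scx-expressing cells, and the median was 0.01. Of the 11 retinoic acid genes none was called, and their median was -0.06.

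Among 19 WNT genes 1 was called, Wnt5a, a ligand of distal limb mesenchyme that drives outgrowth, and the list median was -0.12. Wnt5a reached 218 CPM in Scx-expressing and 1102 CPM in Scx-low cells, with medians of 2.20 and 2.88 CPM. Its sums were 19.4 CPM (16.3 to 23.0) in Scx-expressing and 76.6 CPM (73.2 to 80.2) in Scx-low cells, a log2 ratio of -1.74 with -3.15, -1.40 and -0.31 by pool. Without pool 1 it was -0.85 and without pool 3 -2.37. It was no longer called without pool 1, nor after thinning (-1.55) or as the mean of single-cell CPM (-1.47), where the pools did not all have the same sign.

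Position in the limb was read from lists of regional genes. Of 12 proximal genes 1 was higher and 0 lower, with a median of 0.24. The higher one was Zbtb16, a zinc finger factor of proximal limb patterning, at 108 CPM in Scx-expressing and 36.8 CPM in Scx-low cells, a log2 ratio of 1.44. It came from pool 3 (4.76), while pools 1 and 2 were at 0.38 and 0.02, and without pool 3 it was 0.20. It was not called after thinning (1.48) or as the mean of single-cell CPM (1.61), where the pools did not all have the same sign. Meis1 and Meis2, proximal homeobox genes, were at 0.34 and 0.13, and Irx3 at 0.15. Of 16 distal genes 0 were called and the median was -0.11. Lhx2, a homeobox factor under the distal ridge, was at -0.63 and negative in each pool, Lhx9 was at -0.06, and Msx1, a homeobox factor of undifferentiated mesenchyme, was at -0.48 and negative in each pool. Hoxd13, the most distal HoxD gene, had counts in 5 of 23 Scx-expressing and 36 of 88 Scx-low cells and a ratio of -1.11, but pool 1 was at 0.92. None of the 7 posterior HoxA and HoxD genes was called, and their median was -0.33. Hand2, a posterior bHLH factor, was at -0.26. Of 17 anterior Hox genes, Hoxa4 was higher at 1.02 and Hoxb2 lower at -1.44, and the median was 0.00. Hoxa4 was at 0.76 without pool 3, 0.83 after thinning and 0.54 as the mean of single-cell CPM, called in none of them, and Hoxb2 had 1 count in Scx-expressing cells.

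Tbx5, at chr5:119832668-119885219 on the plus strand (mm10), was lower in Scx-expressing cells. It reached 162 CPM with a median of 7.42 CPM in Scx-expressing cells, and 3298 CPM with a median of 16.7 CPM in Scx-low cells. Summed Tbx5 was 29.3 CPM (25.4 to 33.6) in Scx-expressing and 80.2 CPM (76.7 to 83.8) in Scx-low cells, a log2 ratio of -1.31 with -2.35, -1.17 and -0.69 by pool. After thinning to equal depth 39.1% of Scx-expressing and 57.1% of Scx-low cells had a Tbx5 count. The ratio was -0.82 after thinning and -0.97 without pool 1, and it was called in neither. Tbx5 and Snai2, a zinc finger factor of migratory mesenchyme, were the calls among 13 tested limb bud mesenchyme genes, whose median was -0.03. Snai2 was at 27.4 CPM in Scx-expressing and 10.9 CPM in Scx-low cells, and its ratio of 1.03 was 0.38 without pool 3 and 0.74 without its highest cells, with no call in either. Prrx1 itself was at 0.40 and Twist1 at 0.38, neither of them called.

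**Figure D3:**
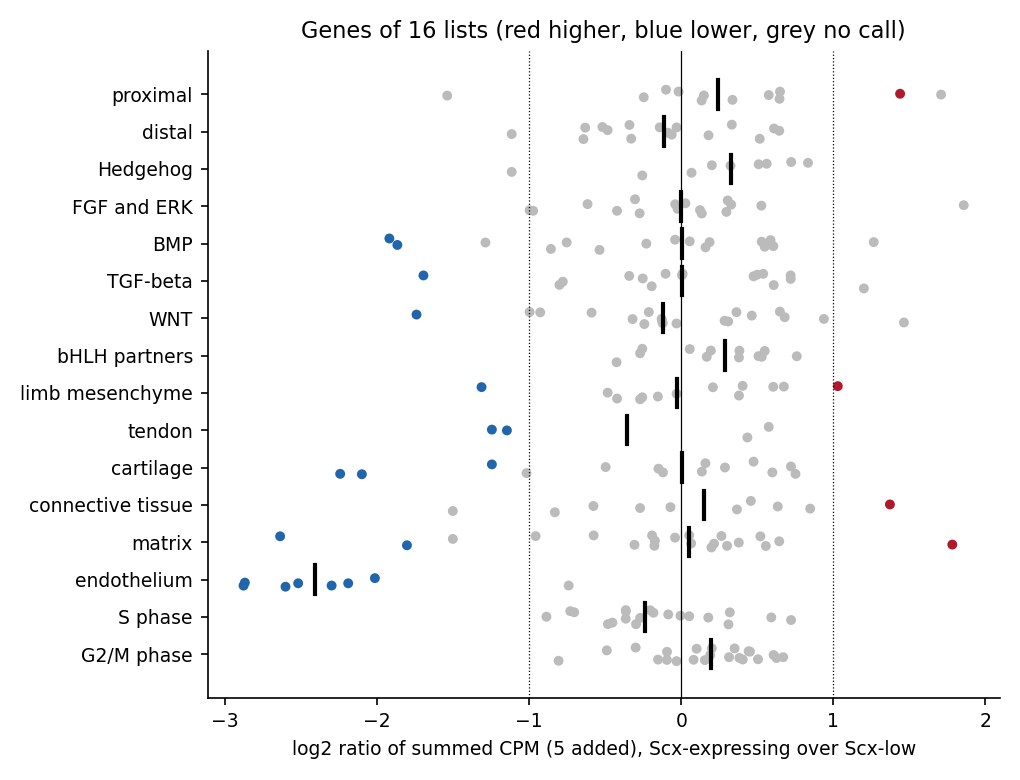
Log2 ratio of summed CPM (5 added), Scx-expressing over Scx-low cells, for each tested gene of 16 lists. Each point is a gene, red where called higher, blue where called lower and grey where not called. Black bars are list medians, and the dotted lines mark a ratio of 1 in size. Most medians lie near 0, and the endothelial genes lie apart at a median of -2.41.

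Among 21 tested matrix genes Mfap4 was higher and Hspg2 and Col18a1 were lower, with a median of 0.05. Mfap4, a glycoprotein of microfibrils, was at 48.0 CPM (43.0 to 53.4) in Scx-expressing and 10.4 CPM (9.17 to 11.7) in Scx-low cells, and its ratio of 1.78 was 0.83 without pool 2 and 2.57 without pool 1. Hspg2, the basement membrane proteoglycan perlecan, had counts in 5 of 23 Scx-expressing and 39 of 88 Scx-low cells. Its highest cell had 7.42 CPM in the Scx-expressing group and 659 CPM in the Scx-low group. Summed Hspg2 was 0.857 CPM (0.315 to 1.87) in Scx-expressing and 31.4 CPM (29.3 to 33.7) in Scx-low cells, 36.7-fold lower, and its log2 ratio was -2.73, -2.42 and -2.72 by pool. Col18a1, another basement membrane component, was at 22.9 CPM in Scx-expressing and 92.2 CPM in Scx-low cells. The ratio of -1.80 was -0.35, and no longer called, when cells carrying markers of other cell types were left out.

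Emilin2, an elastic fibre glycoprotein gene at chr17:71252172-71311978 on the minus strand (mm10), had the most negative ratio of the named genes. It had counts in 6 of 23 Scx-expressing and 48 of 88 Scx-low cells, with highest values of 41.5 and 4099.5 CPM. Summed Emilin2 was 3.43 CPM (2.20 to 5.10) in Scx-expressing and 96.8 CPM (93.0 to 101) in Scx-low cells, 28.2-fold lower. The log2 ratio of -3.59 was -4.28, -2.84 and -3.96 by pool. The call held in all 21 alternative settings, some of which could not lose a call. At equal depth 8.70% of Scx-expressing and 39.3% of Scx-low cells had an Emilin2 count. Vegfa, which encodes the vascular growth factor, was at 10.3 CPM (8.05 to 12.9) in Scx-expressing and 58.4 CPM (55.5 to 61.5) in Scx-low cells, with log2 ratios of -2.02, -2.76 and -1.23 by pool. It was the only call among 13 glycolysis and hypoxia genes. Its ratio of -2.05 was -1.45 without pool 2.

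Endothelial genes were lower as a list, and 4 cells carried most of that difference. Of 8 tested genes 0 were higher and 7 lower (Pecam1, Cdh5, Tek, Emcn, Esam, Egfl7 and Plvap), with a median of -2.41. Pecam1 and Cdh5 had 0 counts in Scx-expressing cells, so they passed the filter on cells through Scx-low cells alone. The summed list was at 20.4 CPM in Scx-expressing and 271 CPM in Scx-low cells, and 6 of its 14 markers had 0 counts in Scx-expressing cells and 0 of them in Scx-low cells. The list's level per cell was at most 173 CPM in Scx-expressing cells and at most 3759 CPM in Scx-low cells. Over 1000 CPM was reached by 0 of 23 Scx-expressing and 4 of 88 Scx-low cells, and these 4 held 88.9% of the list's counts in the Scx-low group. Without all cells over 1000 CPM of any of those 6 lists (21 Scx-expressing and 75 Scx-low cells left) 1 of 4 tested endothelial genes was lower and the median was -0.34. Without pool 3 the same 7 of 8 count was found and the median was -1.73. With the upper Scx limit at 20 CPM, which adds cells that lay between the limits, 3 of 9 were lower and the median was -1.04. The muscle progenitor list was over 1000 CPM in 2 Scx-expressing and 7 Scx-low cells, and the ectoderm list in 0 and 2. Pax3, which marks muscle progenitors, was at 68.7 CPM in Scx-expressing and 23.5 CPM in Scx-low cells, but 86.1% of its counts in Scx-expressing cells were in 1 cell. Without all cells over 1000 CPM of any of the 6 lists, 284 genes were called higher and 902 lower, among 9342 tested. These were not all the same genes. Of the 261 genes called higher with all cells 190 were still called, and of the 941 called lower 689. Whether the cells left out caused the lost calls was not tested.

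For each direction the 15 largest called ratios, among genes detected in 40% or more of the higher group's cells, followed no single fixed list. Beside Cxcl12, the higher ones included Slc35d2, Lpin1, Gbf1, Cstf1, Kif5c, Tor2a, Sdhaf2, Nf1, Rab28, Cox19, Prdm2, Pi4ka and Fli1, with log2 ratios of 3.04 to 1.78. Kif5c, a kinesin heavy chain that carries cargo along microtubules, had at least 50 CPM in 43.5% of Scx-expressing cells (23.2 to 65.5) and 11.4% of Scx-low cells (5.59 to 19.9). Its sums were 111 CPM (104 to 120) in Scx-expressing and 21.6 CPM (19.8 to 23.5) in Scx-low cells, with log2 ratios of 1.89, 0.48 and 4.20 by pool. The ratio of 2.13 was 1.15 without pool 3 and 3.03 without pool 2. Its call held in all 21 settings, some of which could not lose a higher call. Lpin1, a phosphatidate phosphatase, was at 83.4 CPM (76.8 to 90.5) in Scx-expressing and 8.83 CPM (7.70 to 10.1) in Scx-low cells, a log2 ratio of 2.68 that was 1.89 without pool 3 and 3.40 without pool 1. Slc35d2, a nucleotide sugar transporter, had the largest ratio of these, but 89.3% of its counts in Scx-expressing cells were in 1 cell, and without pool 3 the ratio was 0.59. Nf1, the RAS inhibitor neurofibromin, was at 89.9 CPM (83.0 to 97.2) in Scx-expressing and 18.8 CPM (17.1 to 20.6) in Scx-low cells, with 1.61, 1.68 and 3.64 by pool. It was at 1.65 to 2.23 with a pool left out. Without cells over 1000 CPM of other cell type markers Nf1 was at 1.94 and not called. Gbf1 (2.16) and Cox19 (1.63) also lost their calls in that setting.

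Beside Emilin2 and Nrp2, the lower ones were Zkscan17, Spnb3, Eapp, Pno1, Mtor, Rnf2, Scap, Ip6k1, Dhrs7b, Efs, Ccdc18, Cables2 and Dync2h1, with log2 ratios of -3.23 to -2.17. Mtor, the growth-regulating kinase, was at 6.00 CPM (4.33 to 8.11) in Scx-expressing and 74.5 CPM (71.1 to 77.9) in Scx-low cells, with ratios of -2.84, -3.70 and -1.98 by pool. Its highest cell had 50.5 CPM in the Scx-expressing and 889 CPM in the Scx-low group. Rnf2, a ubiquitin ligase of Polycomb complexes, was at 5.14 CPM (3.60 to 7.12) in Scx-expressing and 64.5 CPM (61.4 to 67.8) in Scx-low cells, with -2.27, -2.45 and -3.75 by pool. Pno1, a ribosome assembly factor, was at 4.43 CPM (3.01 to 6.29) in Scx-expressing and 63.2 CPM (60.1 to 66.4) in Scx-low cells. All 3 calls held in the 21 settings, some of which could not lose a call, and were at -2.37 or lower with a pool left out. These genes were picked for wide detection in Scx-low cells, and with Emilin2 and Nrp2 they had counts in 5 to 14 of the 23 Scx-expressing cells.

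The share of cells with a count, at equal depth, gave a second view that single high cells cannot set. A share at least 20 points higher in Scx-expressing cells, and higher in each pool, was found for 218 genes (2.24% of those tested), and a share at least 20 points lower, and lower in each pool, for 118 genes (1.21%). This measure was added after the data were seen. The excess of lower over higher calls was thus not present in shares. Of the 261 genes called higher by sums 49 were also higher in share, 18.8% of the called genes and 22.5% of the share list, and of the 941 called lower 42 were also lower in share, 4.46% and 35.6%. Arf4, a small GTPase of Golgi traffic, had a count in 87.0% of Scx-expressing and 53.6% of Scx-low cells, with sums of 340 CPM (326 to 354) and 123 CPM (118 to 127). Its log2 ratio was 2.64, 1.28 and 0.77 by pool and at least 1.05 with a pool left out. Zfp516, a zinc finger gene, was found in 26.1% of Scx-expressing and 59.5% of Scx-low cells, with sums of 33.1 CPM (29.0 to 37.7) and 111 CPM (107 to 115). Both genes were picked after their values were seen.

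**Figure D4:**
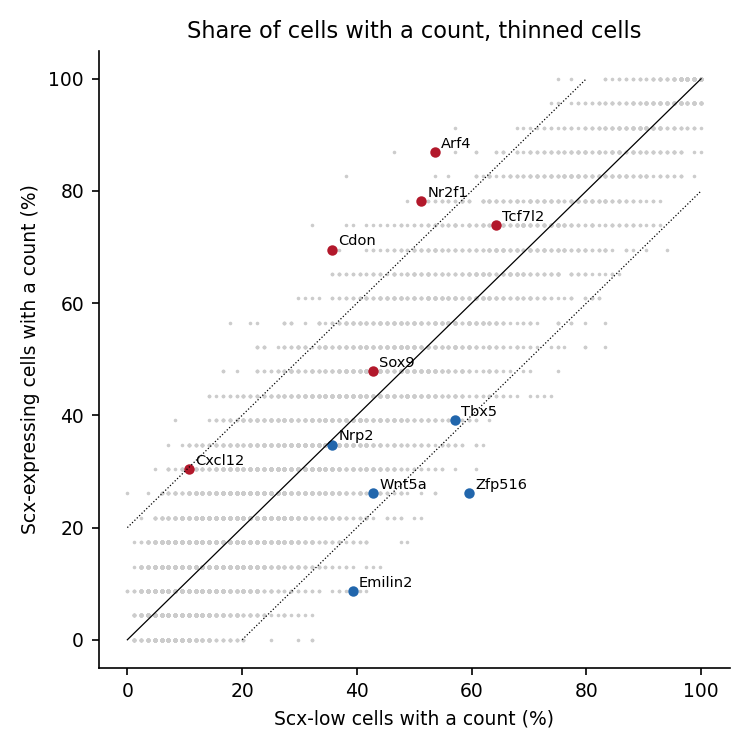
Share of cells with a count after thinning to 50000 counts per cell, Scx-expressing (vertical axis, %) against Scx-low (horizontal axis, %), for all tested genes in grey. Named genes are red where this share was higher in Scx-expressing cells and blue where it was not. Dotted lines mark a difference of 20 points. Arf4, Nr2f1 and Cdon lie above the upper line and Zfp516 and Emilin2 below the lower one.

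Proliferation genes held no calls. Of 20 S phase genes and 22 G2/M genes 0 were called in either direction, with medians of -0.24 and 0.20. The 21 ribosomal protein genes had 0 calls and a median of -0.07.

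The same limits were applied to the later stages, whose cells the choice of groups at E10.5 did not use. At E12.5, 91 cells had at least 50 CPM of Scx and 16 under 5 CPM, and 15% of 10312 tested genes were called higher and 0.795% lower. At E15.5 there were 47 and 102 cells, and 0.907% of 11246 genes were called higher and 2.54% lower. In each stage the side with more calls was that of the larger group, so the direction of the imbalance followed group size. Of 246 genes higher at E10.5 and tested at E12.5, 60 (24.4%) had a log2 ratio of at least 1 there, beside 20.7% of all genes tested at both stages. At E15.5 it was 17 of 252 (6.75%), beside 5.26%. Of 866 genes lower at E10.5, 122 (14.1%) were at -1 or less at E12.5, beside 8.50%, while 227 (26.2%) were at 1 or more there, beside 20.7%. At E15.5, 119 of 903 (13.2%) were at -1 or less, beside 7.32%, and 67 (7.42%) at 1 or more, beside 5.26%. Of the genes higher at E10.5, 24 of 246 (9.76%) were at -1 or less at E12.5, beside 8.50%. At E15.5 it was 22 of 252 (8.73%), beside 7.32%. Both the higher and the lower genes of E10.5 thus lay above the background share in both directions at both later stages. In points, the higher genes lay closer to it. Each of these stages is also 1 sample.

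By gene, Nr2f1 was at 63.8 CPM in Scx-expressing cells and at 0 in the 16 Scx-low cells at E12.5, and its log2 ratio was 0.16 at E15.5. Tcf7l2 was at 274 CPM in Scx-expressing and 126 CPM in Scx-low cells at E12.5, a called ratio of 1.09, and was at -0.06 at E15.5. Kif5c had ratios of 1.30 at E12.5 and 1.60 at E15.5, neither called. Gli3, not called at E10.5, was called higher at E12.5 with a ratio of 1.22. Cxcl12 was at -0.23 and 0.24, Efna5 at 0.26 and -0.02, and Nrp2 at 0.47 and 0.06 at E12.5 and E15.5, all within 1 of equal levels. Rnf2 was lower again at E12.5 with -1.11.

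**Figure D5:**
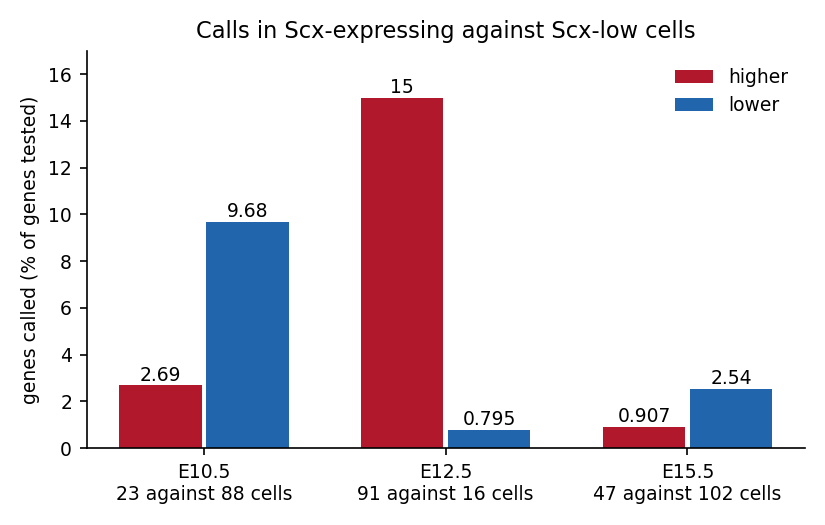
Genes called higher (red) or lower (blue) in Scx-expressing against Scx-low cells, as a percentage of the genes tested, by embryonic stage, with the number of cells of each group under the bars. The higher calls lead at E12.5 (15%), where Scx-expressing cells outnumber Scx-low cells, and the lower calls at E10.5 (9.68%) and E15.5 (2.54%), where they do not.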

How the data were processed

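The authors deposited raw read counts for every gene in every cell. The submitters' processing notes name Bowtie2, featureCounts and mm10. Tool versions, annotation, strand setting and use of molecular identifiers were not given in the sources used here, and PCR can multiply reads. The table held 22738 entries for 22092 symbols; 298 symbols listed more than once held 0.101% of counts, and identical repeats were kept once while differing ones were added. There were 0 mitochondrial entries and 0 pairs of identical cells. Another 1120 samples were not used here, and some items are not reported here.

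From these counts, CPM were computed per cell and per group with Python 3.11.15, numpy 2.4.6, pandas 2.3.3 and scipy 1.17.1. Stage and library pool came from the labels; a pool is a set of 40 libraries and nothing more is stated about it. Scx was left out of the tested genes. No doublet caller was run; leaving out the deepest 5% of cells was an alternative. The members and gene lists were chosen with earlier results of these data known. Of 520 list symbols, 5 matched under older symbols and 2 (Snorc and Pkm) did not match. The genes named were the 15 called genes with the largest ratio in each direction, detected in 40% or more of the higher group's cells and at 50 CPM or more there, without ribosomal protein and predicted genes; up to 4 list members in each direction with at least 20 CPM; fixed limb and tendon genes; and any gene said to have been picked after its values were seen. Genes called within a list are named whatever their level. Alternatives changed the pseudocount, scaling, gene and cell filters, Scx limits, pools and highest cells.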

Additional observations from a re-analysis of the deposited data

Results flagged for a closer look

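Of the genes named above, 6 were called one way at E10.5 and the opposite way at a later stage. In each case the difference between stages was not tested, since each stage is 1 sample. Wnt5a was lower in Scx-expressing cells at E10.5 (-1.74) and higher at E12.5, with a log2 ratio of 2.31, from 235 CPM in Scx-expressing and 43.3 CPM in Scx-low cells. Emilin2 was lower at E10.5 (-3.59) and higher at E12.5 with 2.32, from 38.6 CPM in Scx-expressing and 3.70 CPM in Scx-low cells. Ccdc18, which encodes a coiled-coil protein, was at -2.24 at E10.5 and 2.38 at E12.5. Cables2, related to a gene for a linker of CDK5 and ABL, was at -2.18 at E10.5 and 3.20 at E12.5, from 45.8 CPM in Scx-expressing and 0.529 CPM in Scx-low cells. Sdhaf2, an assembly factor of succinate dehydrogenase, was at 2.08 at E10.5 and -2.67 at E15.5, from 4.81 CPM in Scx-expressing and 57.3 CPM in Scx-low cells. Atf3, an immediate-early factor of the stress response, was at -1.75 at E10.5, where Scx-expressing cells held 1 count, and at 1.38 at E12.5, from 7.97 CPM in Scx-expressing cells and 0 in Scx-low cells. At E12.5 the Scx-low group held 16 cells, and 15% of all genes tested were called higher there.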

How the results depend on the processing

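With a pool left out, the remaining pools called 5.92% to 6.64% of the same genes higher and 15.8% to 16.7% lower; keeping the genes fixed was chosen after the data were seen, and with the filter on cells applied again it was 6.02% to 6.71% higher and at least 14.7% lower. Other settings that moved a count by over 1.5 times were a pseudocount of 20 CPM (1.34% of genes higher, 3.05% lower), a count in at least 30 cells (2.55% and 6.65% of fewer genes tested), every pool of a group above every pool of the other (1.57% higher), size alone without the pools (7.28% higher), the highest cell of each gene left out (1.55% higher), and shares of cells in place of sums (1.21% lower). Higher genes were 21.7% of all calls, 12.0% without the highest cell and 37.3% by size alone. Of genes called higher at E10.5, 17 were at 1 or more at the last stage, 60 at E12.5, and 30 at the last stage with a pseudocount of 1 CPM. For lower genes the 119 became 199 with that pseudocount. The median ratio over all genes was -0.03 with TMM scaling and -0.0056 with median-of-ratios scaling, against -0.06 with total counts. Without cells carrying other cell types' markers, Esam (0.089) and Plvap (0.16) reversed, and Emcn (0.81) did with Scx at 20 CPM or more; the cause was not tested. Of 62 called genes followed, 26 kept their call in every one of the 21 alternatives that tested them. An alternative in which too few cells had a count for a gene was not held against that gene. Tek, among the 26, was tested in only 16. Without cells carrying other cell types' markers Tek was not tested, and its ratio there was 0.116. A pseudocount of 1 CPM, no filter on cells and size alone only loosen the rule and could not lose a call. TMM and median-of-ratios scaling raised the ratios, so they could not lose a higher call. No paired analysis was possible because the stage is 1 sample: both groups lie in each pool and their ratios within pools entered the calls, but no replicate samples allow a test. Depth limits genes at a few CPM: at the group totals, 0 counts allow up to 0.527 CPM in Scx-expressing cells and 0.149 CPM in Scx-low cells.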
